A study of Caenorhabditis elegans with 4 samples.

Results

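The 486 regions described here are the GEI-11 binding regions of the left and central part of the Caenorhabditis elegans X chromosome, out of 6192 regions called over the whole genome. They are all regions of the list called on both ChIP replicates together (the combined list) that lie on chromosome X with a midpoint below 13 Mb, in WormBase WS220 coordinates counted from 1. The members were thus chosen by their position, and the bound was selected on the measured density of regions, which rises to its right, so the density is given as a description with no test. In the lists called on 1 ChIP replicate each, 341 of 4368 replicate 1 regions and 185 of 2617 replicate 2 regions fell in the same span.

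GEI-11, also called SNPC-4, is a DNA-binding subunit of SNAPc, the complex that recruits RNA polymerases to small nuclear RNA genes by way of a promoter element upstream of the start site. In C. elegans it is also required to transcribe piRNA genes, most of which lie on chromosome IV and whose small RNAs guard the germline against foreign sequences. The X chromosome, present as a pair in hermaphrodites, is largely silent in the germline for much of its development and is bound in somatic cells by the dosage compensation complex.

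All 4 samples came from whole hermaphrodites at L3, the larval stage before the last, which were raised at 20 °C and fixed with 2% formaldehyde. They were of 1 strain, OP179, which has the unc-119(ed3) mutation and the transgene wgIs179. This transgene holds unc-119(+), which restores the mutated gene, and gei-11 fused to the tags TY1, EGFP and 3xFLAG, and it was brought in by bombardment and outcrossed. The genotype lists no change to the native gei-11 gene. The ChIP group was 2 libraries precipitated with goat antibodies against GFP, and the input group was 2 libraries of DNA from the same lysates without precipitation. No untagged strain is among these samples, and nothing in the labels says that replicates were separate cultures. Per the authors' sample sheet, sequencing gave 3560372 to 3773496 reads per ChIP library and 7222788 to 8331974 per input library. Cells of all tissues were pooled, so a region bound in few cells and a region bound weakly in many cannot be told apart. The label GEI-11 cannot be checked in lists of regions, and no gene is assigned to a region because the gene table at hand is of another genome build.

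Strength below means −log10 of the q-value that the authors deposited for a region, so a larger value is a stronger call. It ranks regions within 1 list, and its size is not compared between lists as a level of binding. A region was taken as found in a replicate if a region of that replicate list overlapped it by at least 1 bp. Values set beside the rest of the genome below are descriptions with no test, since regions are not replicates and neighbouring regions are not independent. Intervals are exact 95% intervals that cover counting error only.

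The strongest left and central regions were found in both replicates. The strongest lay at X:2328739-2329240 and was number 79 of the combined list. Its −log10 q reached 64.2 on both replicates together, 34.5 on replicate 1 and 40.8 on replicate 2. The replicate calls covered 408 and 433 bp of its 502 bp, so all 3 lists drew the same compact region. The second, at X:2996472-2997459, had a −log10 q of 54.7 combined, 28.4 in replicate 1 and 30.8 in replicate 2. The third, at X:1626564-1627498, had 52.9 combined, 30.1 in replicate 1 and 22.9 in replicate 2. These were the 3 left and central regions among the 100 strongest of the combined list, and all 3 lay in the first 3 Mb.

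The next 7 regions lay at both ends of the span and between. The region at X:11093757-11094402 had a −log10 q of 47.5 combined, 30.7 in replicate 1 and 24.8 in replicate 2. The region at X:8035939-8036929 had 46.4 combined, 32.2 in replicate 1 and 20.1 in replicate 2, and the region at X:4208552-4209550 had 44.3, 25.6 and 23.2 in the same order. Each was a single unbroken call in every list. The region at X:12362789-12363505 reached 41.0 combined, 27.8 in replicate 1 and 17.1 in replicate 2. The regions at X:6296148-6296977 and X:806471-806947 had combined values of 39.5 and 38.5, with 25.1 and 23.8 in replicate 1 and 14.01 and 17.9 in replicate 2. The region at X:1344675-1345420 closed the first 10 with 37.6 combined, 24.5 in replicate 1 and 17.5 in replicate 2. All 10 were thus far above the weakest calls in both replicate lists, with a lowest single-replicate value of 14.01.

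The 20 strongest left and central regions found in both replicates were spread along the span, in 12 of its 13 bins of 1 Mb. Combined values of −log10 q lay between 23.5 and 64.2, replicate 1 values between 7.06 and 34.5, and replicate 2 values between 5.58 and 40.8. Their widths ran from 384 to 3424 bp with a median of 709 bp. The next 10 of them began with X:10568200-10569178 at 34.8, X:11605374-11606849 at 31.7 and X:11937122-11937772 at 29.2, all combined values. X:2891884-2892267 at 28.8 and X:2843486-2843971 at 28.4 followed, 2 narrow calls of 384 and 486 bp that lay in the same Mb as the strongest region. The combined values were 26.9 at X:5840851-5841551, 26.2 at X:767972-768520, 25.2 at X:7500938-7501368 and 24.4 at X:9465475-9466067. The last of the 20, X:10765520-10768943 at 23.5, was unlike the others in form. It was 3424 bp wide and was called as 3 pieces in replicate 1 and 2 in replicate 2, while each of the other 19 was 1 piece in both.

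Left and central regions were somewhat weaker than the rest of each list at the median. They made up 7.85% of the combined list (95% exact interval 7.19 to 8.55%), and 32 of its 500 strongest regions, or 6.4%. In replicate 1 they were 7.81% of the list, with 6 of the 100 strongest and 36 of the 500 strongest, and in replicate 2 they were 7.07%, with 2 and 31. Their median −log10 q was 3.62 (95% exact interval 3.34 to 3.95, interquartile range 2.53 to 6.62), against 4.20 for all other regions and 4.14 for the X regions right of the bound. When the combined list was cut into 10 rank classes of equal size, the strongest class held 39 left and central regions and the ninth held 77, which was 12.4% of that class. The 2 weakest classes held 132 of the 486, or 27.2%, against 20.0% of the whole list. In replicate 1 the median was 3.15 (2.92 to 3.45) against 3.41 for all other regions, a value within that interval. Chromosome V also had a median of 3.15 in replicate 1. In replicate 2 the left and central median was 3.41 (3.18 to 3.71) against 3.82 for all other regions. The order against all other regions was thus the same in each list.

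Regions per Mb varied more than 2-fold along the span. The bin from 2 to 3 Mb, which held the 2 strongest regions, was the fullest with 56 regions (95% exact Poisson interval 42.3 to 72.7), and the bins from 6 to 7 Mb and from 12 to 13 Mb were the emptiest with 24 each (15.4 to 35.7). The first 5 bins held between 35 and 56 regions, and the 8 others between 24 and 43. In replicate 1 the bins held 17 to 40 regions and in replicate 2 they held 6 to 28, and the bin from 2 to 3 Mb was the fullest in both. The bin from 3 to 4 Mb was the emptiest in replicate 2, with 6 regions against 26 in replicate 1 and 35 in the combined list. Only 6 of those 35 were found in both replicates, or 17.1%, the lowest share of any of the 13 bins. Its strongest region, X:3127190-3128459, had a −log10 q of 18.3, the lowest maximum of any bin. The bin from 9 to 10 Mb was close in support, with 7 replicate 2 regions and 20.7% of its 29 combined regions found in both. In all 13 bins the strongest region was found in both replicates.

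**Figure D1:**
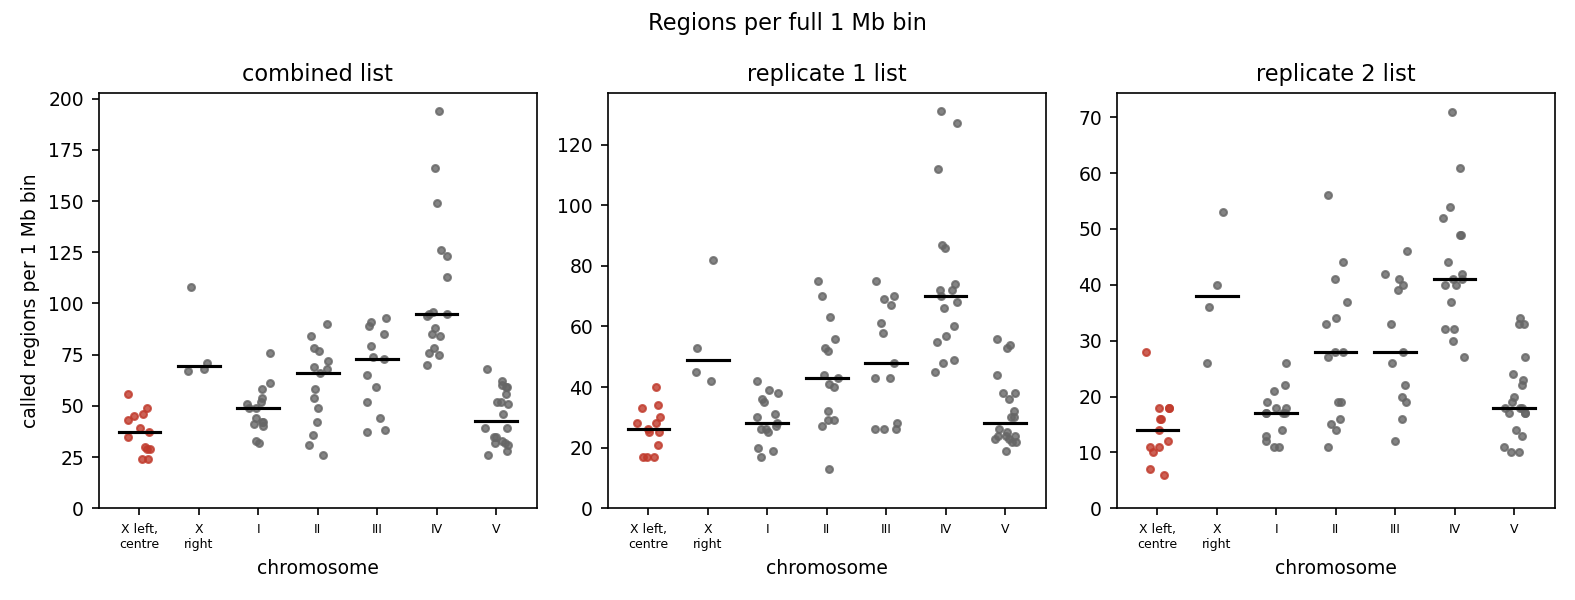
Called regions in each full 1 Mb bin (points) and their median (line), by chromosome, for the combined list and each replicate list, with the 13 left and central X bins in red. In the combined list the X bins left of the bound held 24 to 56 regions with a median of 37, and the 4 full bins right of it 67 to 108.

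Over the 13 Mb the density was 37.4 combined regions per Mb (95% exact Poisson interval 34.1 to 40.9), and the replicate lists gave 26.2 for replicate 1 and 14.2 for replicate 2. Together the regions covered 256 kb, or 1.97% of the span. In the combined list chromosome V was the autosome with the lowest density, with a median bin of 42.5 regions. Its 20 full bins ran from 26 to 68, so all but 2 of the left and central X bins lay within its range. In the replicate lists chromosome V was not the sparsest by this measure. The median bins of chromosomes V and I both held 28 regions in replicate 1, and 18 and 17 in replicate 2. Just inside the bound, the last 3 regions were X:12876818-12877286, X:12889662-12890380 and X:12975598-12975962, with −log10 q values of 2.23, 3.38 and 3.12 and none found in a replicate. Just outside it, the first 3 were X:13046245-13046636, X:13060035-13060267 and X:13104865-13105181, with values of 2.33, 2.84 and 4.67. Apart from X:13104865-13105181, which was found in both replicates, these regions next to the bound were below the whole-list median of 4.14. The region at X:13060035-13060267 was found in replicate 1 only.

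The regions were scattered, with local groups. The median distance between neighbours was 13.5 kb (interquartile range 4.70 to 32.4 kb), and 20 of the 485 gaps were over 100 kb. The widest gap, 224 kb, ran from X:6505022-6505482 to X:6729536-6729908, and the next 2 ran from X:1626564-1627498 to X:1828797-1828958 and from X:12670177-12670789 to X:12860676-12861080. The gap beginning at 1627498 thus starts at a region that is number 3 of the span by strength. At the other extreme, the most crowded window of 50 kb held 11 regions between 1437115 and 1486652, of which 3 were found in both replicates and 3 in neither. The strongest of these, X:1446667-1447193, had a −log10 q of 14.1, and the median of the 11 was 2.85. The second window held 9 regions between 7988929 and 8036929 and ended at the strong region X:8035939-8036929. This window held 4 regions found in both replicates and had a median of 6.32. The third held 8 between 3089687 and 3128459, of which 3 were found in both and 1 in neither, with values from 2.62 to 18.3 and a median of 6.09. Crowding thus did not go with 1 level of strength, as the first window was weaker than the span as a whole and the other 2 were stronger.

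Both ChIP replicates found a minority of the regions. Of the 486, 161 were found in both, which is 33.1% (95% exact interval 29.0 to 37.5%), against 35.2% over the whole combined list. A further 142 were found in replicate 1 alone (29.2%, against 28.1% over the whole list) and 23 in replicate 2 alone (4.73%, against 6.09%). The remaining 160 were found in neither (32.9%, against 30.7%). Right of the bound on the same chromosome 41.9% were found in both (36.6 to 47.4%), and on chromosome V 37.6%. The shares left of the bound lay close to those of the whole list, and their intervals took in the whole-list values.

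Support by the replicates followed strength closely. All 78 left and central regions of the 2 strongest rank classes were found in both replicates. In the third class 84.8% were, in the fourth 69.0% and in the fifth 27.1%, against 82.6%, 48.8% and 19.1% of the whole list. From the seventh class on, none was. If each class had been supported at the rate of the whole list, 30.1% of the 486 would have been found in both, and the measured share was 33.1%. The rate expected from the whole list lay within the exact interval of the measured one, and replicate support was computed from the same reads as the strength of a region. The median −log10 q was 8.94 for regions found in both replicates, with quartiles at 6.39 and 14.3, and 2.40 for those found in neither, with quartiles at 2.23 and 2.74. Those found in replicate 1 alone had 3.53 and those found in replicate 2 alone 3.64.

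**Figure D2:**
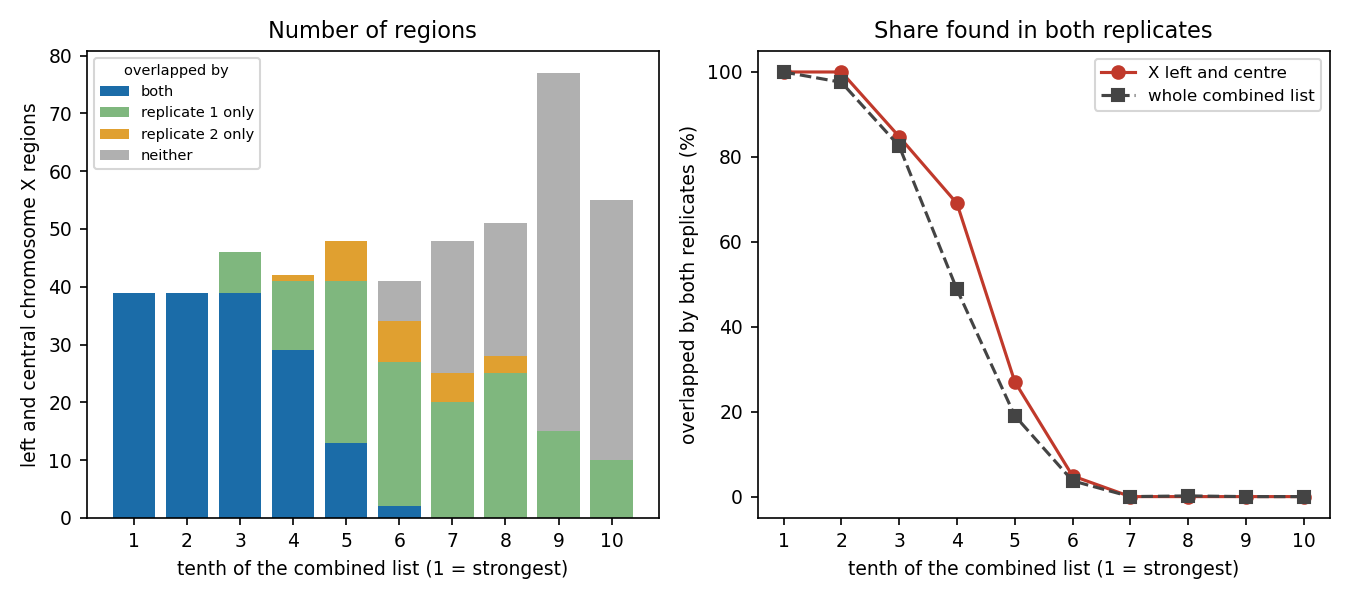
Left, number of left and central X regions in each rank class of the combined list (10 classes) from the strongest (1) to the weakest (10), by the replicate lists that overlapped them. Right, percentage overlapped by both replicates in each class, for these regions and for the whole combined list; the fourth class reads 69.0% against 48.8%.

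Regions with support from 1 replicate only were at best number 1393 of the combined list. In replicate 1 alone they were X:5775671-5776202, with −log10 q of 8.26 combined and 7.70 in replicate 1, X:8422002-8422355, with 7.93 and 7.19, and X:3114706-3116828, with 7.61 and 2.48. In replicate 2 alone they were X:1379439-1379843, with 5.84 combined and 3.68 in replicate 2, X:8477297-8477762, with 4.94 and 3.71, and X:9550665-9551565, with 4.88 and 2.92. The 5 strongest regions found in neither were X:10900063-10901348 at 3.94, X:11481783-11483135 at 3.70, X:760322-761018 at 3.67, X:7682034-7682668 at 3.66 and X:551409-551764 at 3.60. The first 2 of these were wide, at 1286 and 1353 bp. Absence from a replicate list at this depth does not show that a region was unbound there.

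Seen from the replicate lists, 161 of the 185 replicate 2 regions in the span overlapped a replicate 1 region, or 87.0% (95% exact interval 81.3 to 91.5%), against 84.5% over the whole list. In the other direction 164 of 341 replicate 1 regions overlapped replicate 2, or 48.1% (42.7 to 53.5%), against 51.1%. Replicate 2 thus called 0.54 times as many regions as replicate 1 in the left and central part, against 0.71 times right of the bound and 0.60 times over the genome. Every replicate 2 region of the span overlapped a combined region, while 31 of the 341 replicate 1 regions did not. This was not counted over the whole lists, so it describes the span only. Those 31 were weak and mostly narrow, with a median width of 221 bp and a highest −log10 q of 3.03, at X:4899546-4900111. The next 2 of them, X:1591714-1591740 and X:3379564-3379657, had 2.91 and 2.90.

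The centres of matched replicate calls lay close together, but pairs were matched by overlap, which itself limits the distance between centres. Over 161 pairs of regions, each the other's best match by overlap, the centres lay a median of 29 bp apart (interquartile range 14 to 76 bp), and 132 pairs, or 82.0%, lay within 100 bp. The largest offset was 712 bp. Strength followed the same order in both lists, with a Spearman's rho of 0.74 across the 161 pairs, the same to 2 decimals as the 0.74 across 2197 pairs of the whole lists. Width did so too, with a rho of 0.87. The distances and the rho of width are given for the span only, with no value of the whole lists beside them. These correlations are across regions that share the genome and, per the sample sheet, a combined input signal, and carry no p-value. Neither replicate was wider throughout, since 83 pairs were wider in replicate 1 and 75 in replicate 2.

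**Figure D3:**
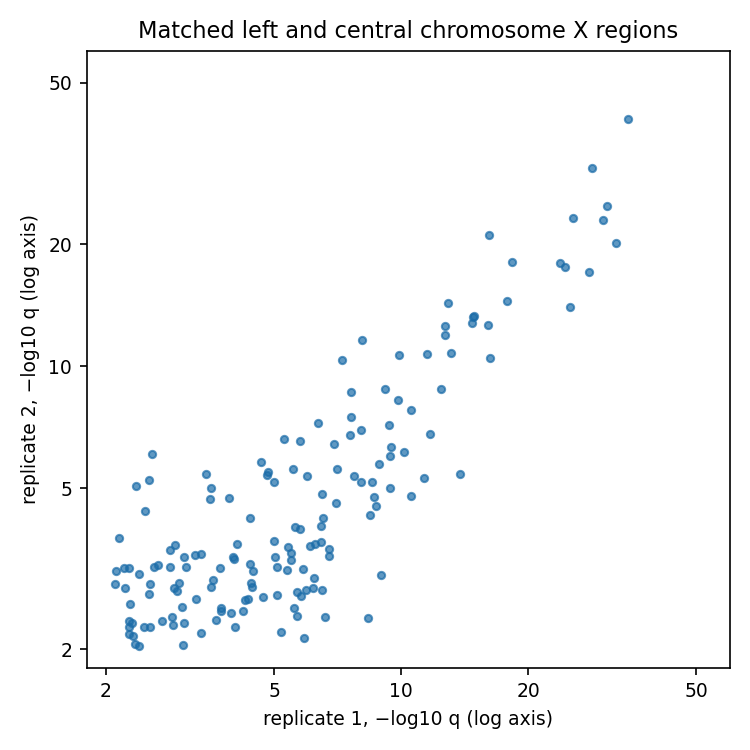
Strength (−log10 q, log axes) in replicate 1 and replicate 2 of the 161 matched left and central X regions, 1 point each. The points rise together (Spearman's rho 0.74), up to the strongest region at 34.5 and 40.8.

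Left and central X regions had a larger median width than the rest of each list. Their median width was 438 bp (95% exact interval 403 to 469 bp, interquartile range 310.5 to 619 bp) in the combined list, against 335 bp for all other regions. It was 367 bp right of the bound (345 to 388 bp), and on the autosomes it ran from 251 bp on chromosome IV to 381 bp on chromosome I. In replicate 1 the median was 401 bp (381 to 442 bp) against 321 bp for all other regions, and in replicate 2 it was 458 bp (421 to 496 bp) against 356 bp. In each of the 3 lists this was above the median of every autosome and of the right end of X. The interval did not overlap that of any other chromosome part in the combined list, but in replicate 1 it overlapped that of chromosome I, at 370 bp (355 to 393 bp). In replicate 2 it overlapped those of chromosome I, at 416.5 bp (377 to 461 bp), and chromosome V, at 382 bp (362 to 422 bp).

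Width rose with strength, with a Spearman's rho of 0.50 across the left and central regions and 0.58 across the whole list, so width was also read within rank classes. In the strongest class the left and central regions had a median of 646 bp against 660 bp for all others. In each of the 9 weaker classes they were wider, by between 79 and 220 bp. The others include the narrow regions of chromosome IV. Against the autosomes without chromosome IV, whose median over all classes was 363 bp, a comparison added after the values were seen, the difference was -57.5 bp in the strongest class and between 42 and 193.5 bp in the 9 others. Against all others, in the second class the medians were 686 and 466 bp, in the fourth 584.5 and 370 bp, and in the weakest 308 and 204 bp. Very narrow calls were few, with 11 of 486 under 50 bp, or 2.26% (95% exact interval 1.14 to 4.01%), against 5.51% of the whole list, where 238 of the 341 lay on chromosome IV. With these removed from all groups, the medians were 447 bp against 345 bp for all other regions, so the difference did not rest on them. The narrowest regions that both replicates found were X:2626279-2626532, X:7005949-7006207 and X:2663870-2664129, at 254, 259 and 260 bp.

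**Figure D4:**
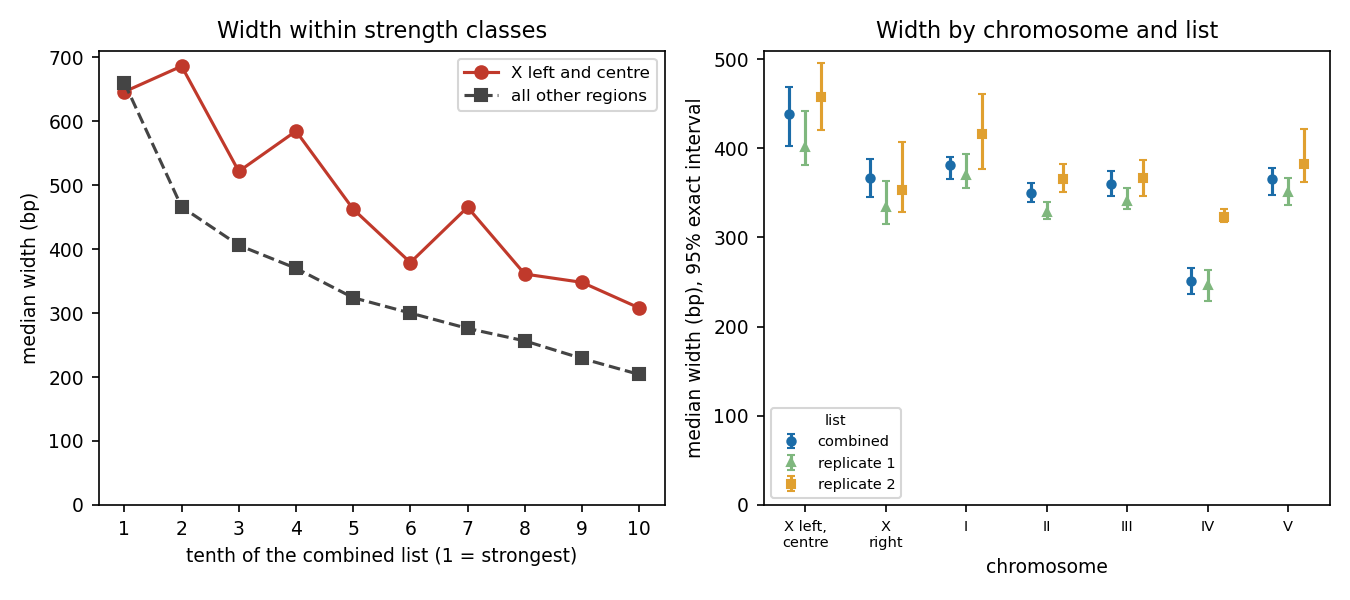
Left, median width (bp) in each of 10 rank classes of the combined list for left and central X regions and for all other regions. Right, median width by chromosome in each list, with exact 95% intervals; the left and central X regions have the highest median in each list, at 438, 401 and 458 bp.

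The median width varied along the span. In the 4 bins below 4 Mb the median widths were 347 to 408 bp, and in the 9 bins from 4 to 13 Mb they were 436 to 565 bp. This division was chosen after these bins were seen, so their separation restates the choice. In the replicate lists the bin medians overlapped, at 343 to 405 bp against 359 to 471 bp in replicate 1 and at 355 to 469.5 bp against 417.5 to 668 bp in replicate 2. Over the whole stretches the medians were 384 bp (95% exact interval 347 to 430 bp, 182 regions) and 469 bp (433 to 504 bp, 304 regions). In replicate 1 they were 376.5 bp (339 to 429 bp) and 418 bp (397 to 471 bp), where the intervals overlap, and in replicate 2 they were 401 bp (363 to 458 bp) and 497 bp (444 to 555 bp), where they also overlap. In the combined list strength differed little between the stretches, with a median −log10 q of 3.60 below 4 Mb and 3.64 above. The share found in both replicates was also close, at 34.1% and 32.6%. The median −log10 q below and above 4 Mb was 3.17 and 3.15 in replicate 1, but 3.88 and 3.19 in replicate 2. Density went the other way from width, with 45.5 combined regions per Mb below 4 Mb (39.1 to 52.6) and 33.8 above (30.1 to 37.8).

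Regions of 1000 bp or more, called broad here, numbered 36, or 7.41% of the left and central regions against 4.38% of the whole list. The share was 5.19% on the autosomes without chromosome IV, and 6.08% on chromosome I. In replicate 1 the left and central share was 5.57%, against 2.88% of the whole list and 4.76% on chromosome I. In replicate 2 it was 5.95%, against 4.70% of the whole list, 6.21% on chromosome II and 9.06% on chromosome I. Of the 36, 29 lay between 4 and 13 Mb, which held 304 of the 486 regions. Broad regions were 9.54% of the regions there and 3.85% below 4 Mb, a division chosen after the bins were seen. The 36 were weaker than broad regions in general, with a median −log10 q of 8.61 and quartiles at 5.80 and 11.8 in the combined list. All 271 broad regions had a median of 18.1 and quartiles at 8.89 and 32.1. Both replicates found 26 of the 36, or 72.2%, against 83.8% of all broad regions. Replicate 1 alone found 6, and neither replicate found the other 4. Among the 26 broad regions found in both, the calls of single replicates covered a median of 68.2% of the width in replicate 1 and 57.4% in replicate 2. For all 161 left and central regions found in both these medians were 87.3% and 85.4%.

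The 5 widest show how differently the lists drew such regions. The widest, X:6739049-6742584, spanned 3536 bp with a combined −log10 q of 10.9, and replicate 1 covered 55.4% of it in 2 pieces and replicate 2 covered 68.0% in 1. In X:10765520-10768943, the broad region among the 20 strongest, the pieces covered 53.0% in replicate 1 and 63.6% in replicate 2. The next, X:6742883-6745691, spanned 2809 bp at a combined value of 9.28, and was covered by 64.6% in replicate 1 and 23.9% in replicate 2. None of these was called at its full width by a single replicate. The fourth, X:11473000-11475212, spanned 2213 bp at a combined value of 6.93. The fifth, X:3114706-3116828, spanned 2123 bp and was called as 2 pieces in replicate 1 and was not found in replicate 2.

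**Figure D5:**
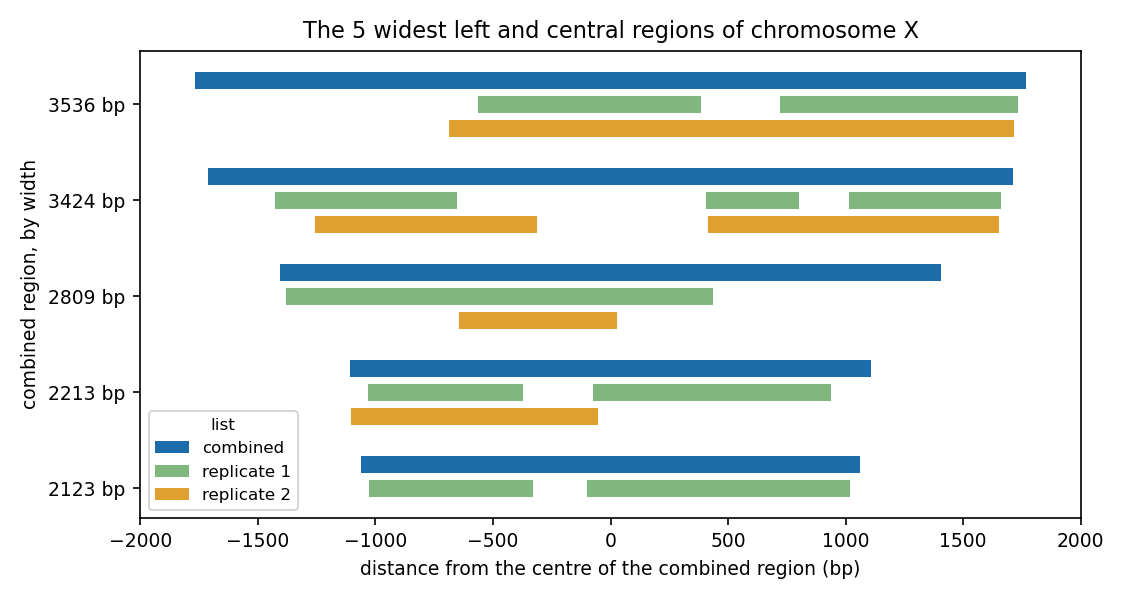
The 5 widest left and central X regions of the combined list and the regions that each replicate list called over them, against the distance in bp from the centre of the combined region. Single replicates called parts of each, in up to 3 pieces, and replicate 2 called nothing over the region of 2123 bp.

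The widest region and X:6742883-6745691 lay side by side. With X:6736328-6738115, a region of 1788 bp, they formed a run of 3 regions from 6736328 to 6745691 in which called bases made up 86.9% of 9.36 kb, and all 3 were found in both replicates. The run lay just right of the widest gap of the span, with only the weak region at X:6729536-6729908 between. Of the 486 regions, 62 lay within 1000 bp of a neighbour, in 29 runs, of which 4 held 3 regions. The other 3 runs of 3 spanned 4016004 to 4019150, 8017246 to 8020237 and 2551512 to 2554119, and were shorter, at 3.15, 2.99 and 2.61 kb. The run at 6736328 was thus the longest of the 29, though its strongest region was number 965 of the combined list. Runs were not counted in the rest of the list. With regions within 1000 bp merged throughout, the span held 8.37% of the list, against 7.85% before merging.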

How the data were processed

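Per the labels' protocols, chromatin of fixed worms was sheared by sonication, 1 portion was set aside as input, and the remainder was precipitated with antibodies against GFP. Reads of 36 bases were counted per library in the authors' sample sheet, where uniquely mapped read counts, 2500000 and 2800000 for ChIP and 6000000 for each input, look rounded. PeakSeq called the regions, per the files' source column, and the authors deposited a q-value for each, all below 0.01. Per the deposited sample sheet, the combined list came from merged ChIP alignments and each replicate list from 1 ChIP library, with a combined input signal for all. Neither aligner nor PeakSeq settings are stated in what was used here. The file headers name WS220 and record a move of coordinates after calling, while the sheet names WS190.

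The lists were used as deposited, with Python 3.11.15, pandas 2.3.3 and scipy 1.17.1. Shares have exact Clopper-Pearson, densities exact Poisson and medians exact order-statistic 95% intervals. PCR copies of reads could not be told from separate molecules. Where several replicate regions overlapped a region, the value is that of the largest overlap. No test was made. Named regions are the 20 strongest found in both replicates, the 5 widest, those at the bound, the strongest of each bin, the strongest by support class, those at the widest gaps and in the fullest windows of 50 kb, and the 3 narrowest found in both. The division at 4 Mb, the class of 1000 bp or more and the runs were added after values were seen. The regions and choices were made with earlier results of these data known. The overlap functions were tested on simulated data. Gene annotation and sequence of the regions were not analysed here.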

Additional observations from a re-analysis of the deposited data

How the results depend on the processing

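Of 63 alternatives to 10 values, 48 stayed within the 95% exact interval of the main value, within 1.5 times the number of regions or within 0.1 of the correlation. The 3096 best scored regions of the combined list held 214 left and central regions, or 6.91% of them and 16.5 per Mb, with a median −log10 q of 7.41 and a median width of 542 bp, of which 74.3% were found in both replicates and 0% in neither. That setting leaves out the weak regions, which by itself lowers the count and density and raises the median −log10 q. Why the other values moved was not tested. With only the 2617 strongest replicate 1 regions, 69.7% of replicate 2 regions in the span were shared. With the bound at 14 Mb the span held 8.93% of the combined list. Using 1 replicate list in place of the combined one gave 185 to 341 regions, 14.2 to 26.2 per Mb, a median −log10 q of 3.15 to 3.41, a median width of 401 to 458 bp and 7.07 to 7.81% of the list, with the replicate 2 list giving the fewer regions. The cause was not tested for these settings. Requiring 50% reciprocal overlap, removing regions under 50 bp, merging within 1000 bp, the bound at 12 Mb, placing regions by their whole length and 5 rank classes moved no value outside its interval. No paired analysis was possible because the input libraries have no values of their own in the lists. The planned use of gene annotation and sequence was not run. How far the depth of the ChIP libraries limits weak calls was not tested, and 32.9% of the regions appeared in neither replicate list.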
